A study of Mus musculus with 32 samples.

Results

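The cells described here are GABAergic cells of the embryonic mouse cortex that showed no Lhx6 transcript and carried transcripts of Nr2f2, Sp8 or Prox1, transcription factors of interneurons from the caudal ganglionic eminence (CGE). They were chosen by measured values. A barcode with at least 1000 UMIs (unique molecular identifiers, each standing for 1 captured transcript) and 500 genes was a member if Gad2 and Dlx6os1 together had at least 2 UMIs, Nr2f2, Sp8 and Prox1 together at least 2, Lhx6 none, Neurod6 at most 1 and Eomes none. The rule took 684 of 143705 barcodes (0.476%), and they are called Lhx6-negative cells below. The name does not cover all GABAergic cells without Lhx6. A further 1320 barcodes met the other conditions but had fewer than 2 UMIs of Nr2f2, Sp8 and Prox1 together. By embryonic stage they numbered 121 at E12.5, 69 at E14.5, 131 at E16.0 and 363 at E17.5. The cells they were compared with, called Lhx6 interneurons, met the same conditions on Gad2 with Dlx6os1, Neurod6 and Eomes, had at least 1 Lhx6 UMI and no condition on Nr2f2, Sp8 or Prox1. They numbered 1433, of which 1 was at E12.5, 554 at E14.5, 320 at E16.0 and 558 at E17.5.

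Cortical interneurons are not made in the cortex. They are born in the ganglionic eminences of the ventral telencephalon and migrate tangentially into the cortical wall; cells of the medial ganglionic eminence (MGE) keep Lhx6 and give rise to the Sst and Pvalb classes, whereas cells of the CGE keep Nr2f2, Sp8 and Prox1 and give rise to the Vip, Lamp5 and Htr3a classes. The lateral ganglionic eminence (LGE) lies next to the cortex, also uses Sp8, and produces striatal projection neurons and, through Meis2, Pax6 and Etv1, olfactory bulb interneurons.

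The 32 samples were single-cell libraries of the dorsal telencephalon of C57BL/6J mouse embryos, its medial side cut away, made with the 10x Genomics 3′ kit, version 2 chemistry. They came from wild-type (WT) embryos and from embryos heterozygous for Chd8 (Chd8+/-), a chromatin remodeller, at the 4 stages named above. Each of the 8 groups held 4 embryos processed one by one: 2 males (M1, M2) and 2 females (F1, F2). Each was paired here with the embryo of the other genotype of the same stage, sex and number, taken as its litter mate. Libraries held 2449 to 7388 barcodes that passed and 14710694 to 66499864 UMIs. Of 130769 distinct barcode sequences, 12168 occurred in more than 1 library, but no barcode sequence was a Lhx6-negative cell in more than 1 library. Chd8 itself stood at 40.0 to 83.8 CPM (UMIs scaled to a common total per library) in the 16 WT libraries and at 20.6 to 71.1 in the 16 Chd8+/- libraries; it was lower in the Chd8+/- embryo in 15 of 16 pairs, at a median ratio of 0.839. Within the Lhx6-negative cells it had 89 UMIs in 331 WT cells and 84 in 353 Chd8+/- cells.

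The factors that chose the cells were not the same at each stage. Nr2f2 had a UMI in 3 of 121 cells at E12.5 (2.48%), 66.7% at E14.5, 55% at E16.0 and 67.8% at E17.5. Sp8, by contrast, was found in all 121 cells at E12.5 and in 65.2%, 73.3% and 62.3% later. Prox1 was found in 24.8%, 27.5%, 38.2% and 46.3% by stage, and Gad2, a GABA-synthesising enzyme, in 84.3%, 91.3%, 74.8% and 70%. Over all stages 212 cells had Sp8 without the other factors, 81 had Nr2f2 alone, 18 Prox1 alone, and 65 had all of them. These values chose the cells and are a description only. The threshold lay close to many of them. Exactly 2 UMIs of Nr2f2, Sp8 and Prox1 together were found in 260 members (38%), and 371 barcodes just outside had exactly 1. Barcodes that failed only for their Lhx6 numbered 32; those that failed only for 1 UMI of Gad2 and Dlx6os1 numbered 96, against 92 members with exactly 2. The rule counts UMIs, so depth bears on who passes it; the median depth of the Lhx6-negative cells was 6419 UMIs at E12.5, then 5385, 4828 and 3411.

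The Lhx6-negative cells were rare up to E16.0 and more frequent at E17.5. Their share per library was 0% to 0.635% of barcodes at E12.5 (median 0.287%), 0.0629% to 0.388% at E14.5 (0.210%), 0.0614% to 0.741% at E16.0 (0.260%) and 0.520% to 3.27% at E17.5 (0.734%), with 8 libraries at each stage. The first 3 stages overlapped throughout, and the lowest E17.5 libraries lay below the highest of E12.5 and E16.0. The step from E16.0 to E17.5 was 0.994 percentage points (two-sided exact permutation test, 8 against 8 libraries, adjusted over 3 steps, p = 0.0028). The 2 libraries of a pair were taken as litter mates, so the 8 libraries of a stage were also read as 4 pairs. Deviations of the shares correlated within pairs (r = 0.886 over 16 pairs, a description). The M2 pair at E17.5, at 2.52% and 3.27%, weighs heavily in that value. The M1 pair at E12.5, at 0.557% in WT and 0% in Chd8+/-, went apart. Means of pairs lay at 0.112% to 0.448% at E16.0 and 0.626% to 2.9% at E17.5, without overlap, but over them the step did not pass (exact permutation test, 4 against 4 pairs, p = 0.0286, adjusted p = 0.0857); 4 against 4 cannot give a p below 0.0286. The steps before it, -0.0825 and 0.0855 points, did not pass (exact permutation tests, adjusted p = 0.387 for both). The M2 pair at E17.5 stood apart, with 2.52% in the WT and 3.27% in the Chd8+/- embryo against 0.520% to 1.11% in the other 6 libraries. Over libraries the last step was 0.459 points without that pair (exact permutation test, adjusted p = 0.012), 0.498 with cells thinned to 3000 UMIs (adjusted p = 0.0275, same test) and 0.626 with at least 3 UMIs of Nr2f2, Sp8 and Prox1 (adjusted p = 0.00233, same test). In Chd8+/- M1 at E12.5, 0 of 4383 barcodes passed. By a limit of 3 counts of the total that allows up to 0.0684%, and the exact 95% interval reaches 0.0841%; both cover counting error only.

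**Figure D1:**
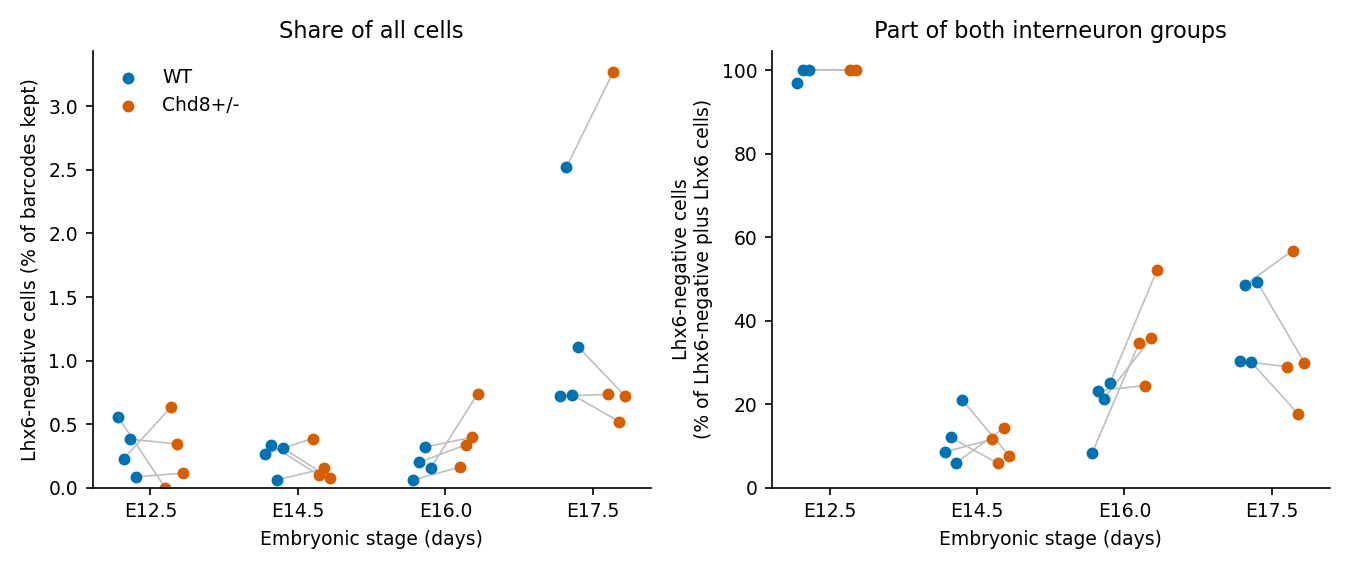
Share of Lhx6-negative cells among all barcodes kept (left, percent) and among Lhx6-negative cells plus Lhx6 interneurons (right, percent) by embryonic stage. Each point is 1 library (blue WT, orange Chd8+/-) and grey lines join pairs of the same sex and number, taken as litter-matched. The M2 pair at E17.5 lies at 2.52% and 3.27% in the left panel. The right panel, at 97% or more in the 5 libraries of E12.5 with at least 10 such cells, lies between 5.88% and 21.1% at E14.5.

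Among Lhx6-negative cells plus Lhx6 interneurons the order was different. This is not a part of all GABAergic cells. The barcodes without Lhx6 and with fewer than 2 UMIs of Nr2f2, Sp8 and Prox1 are left out. They numbered 88 at E12.5, 254 at E14.5, 390 at E16.0 and 588 at E17.5. At E12.5 the cells of the rule made up 99.4% of Lhx6-negative cells plus Lhx6 interneurons on average over the 5 libraries with at least 10 such cells, and 1 Lhx6 interneuron was seen. They made up 10.9% at E14.5, a step of -88.5 points (exact permutation test, adjusted p = 0.0035), 28.1% at E16.0, a rise of 17.3 points (adjusted p = 0.0035, same test), and 36.5% at E17.5, a rise of 8.35 points that did not pass (exact permutation test, adjusted p = 0.227). Over means of pairs the first of these steps was -88.1 points (4 against 3 pairs). Neither it nor the next passed (exact permutation tests, p = 0.0571 and 0.0286, adjusted p = 0.0857 for both). An exact permutation test of 4 against 3 pairs cannot give a p below 0.0571, nor one of 4 against 4 below 0.0286. Both steps gave the lowest p possible, so these tests cannot decide them. By library the part was 97.0% to 100% at E12.5 and 5.88% to 21.1% at E14.5, without overlap.

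Whether Chd8 heterozygosity changed the number of these cells was tested within each stage. For E12.5 the share was 0.314% ± 0.202 in WT and 0.274% ± 0.28 in Chd8+/- libraries (SD, n = 4 per group here and in the following). For E14.5 it was 0.244% ± 0.124 against 0.179% ± 0.143, with WT listed first. For E16.0 it was 0.184% ± 0.108 against 0.41% ± 0.242. For E17.5 it was 1.27% ± 0.852 against 1.31% ± 1.31. No stage passed the test. An exact permutation test of 4 against 4 libraries cannot give a p below 0.0286. After adjustment over 4 stages a difference at a single stage could therefore not pass. At E16.0 the Chd8+/- embryo was higher in 4 of 4 pairs, by 0.226 points on average (two-sided exact permutation test, p = 0.114, adjusted over 4 stages p = 0.457), while the groups overlapped. Averaged over stages the difference was 0.0405 points (permutation test with labels shuffled within stages, p = 0.791), with the Chd8+/- embryo higher in 10 of 16 pairs.

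Expression was compared in counts summed over the cells of a library and class, in the 17 libraries with at least 10 cells of both classes (4 at E14.5, 5 at E16.0, 8 at E17.5), with edgeR's quasi-likelihood test and the library as a block. Levels are CPM of that sum. The 8 genes of the rule were left out of the test. The genes tested were read in the cells the rule chose, so a gene that varies with the genes of the rule had to differ. Of 4893 genes, 953 were higher in Lhx6-negative cells (19.5%) and 876 lower (17.9%) at an adjusted p below 0.05, and the median log2 difference over all genes tested was 0.001.

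Of a list of 18 CGE interneuron genes, 10 were tested, 5 of them higher, 1 lower and 4 not called, with a median log2 difference of 0.52; 8 were under the filter on low counts. Adarb2 (chromosome 13, 8202866 to 8768747, plus strand, GRCm38), an RNA-binding protein and the standard marker of CGE interneurons, stood at 55.6 to 1814 CPM in Lhx6-negative cells (median 273) and at 0 to 41.6 in Lhx6 interneurons (median 2.50). The classes did not overlap, and the log2 difference was 6.03 (SE 0.34, edgeR adjusted p = 3.37e-11), higher in 17 of 17 libraries. Htr3a (chromosome 9, 48899213 to 48911099, minus strand), the serotonin receptor subunit that defines the broad CGE class, stood at 33.3 to 518 CPM (median 165) against 0 to 33 (median 15.9), again without overlap. Its log2 difference was 3.19 (SE 0.37, edgeR adjusted p = 1.04e-06). Nr2f1, the paralogue of Nr2f2, was 1.17 higher and higher in 16 of 17 libraries, with overlapping levels of 134 to 694 and 27.7 to 254 CPM. Cnr1, the cannabinoid receptor of many CGE-derived cells, was 2.09 higher (edgeR adjusted p = 3.69e-06), but without the E14.5 Chd8+/- M1 library the difference was 1.38 (edgeR adjusted p = 0.0501). The chemokine gene Cxcl14 had 67 UMIs in Lhx6-negative cells and 3 in Lhx6 interneurons, a ratio of 42.6 (95% counting interval 14 to 212).

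Counted per cell, Adarb2 had a UMI in 60.6% of the 363 Lhx6-negative cells at E17.5 (exact 95% interval 55.4 to 65.7), in 1.08% of Lhx6 interneurons and in 1.77% of excitatory neurons, at median depths of 3411, 3338 and 5223 UMIs. Thinned to 3000 UMIs a cell, the share in the 150 Lhx6-negative cells deep enough was 54%. Htr3a had a UMI in 49.3%, 3.76% and 0.564% of the same cells. Earlier, Adarb2 was found in 12.4% of the cells of the rule at E12.5, 44.9% at E14.5 and 32.8% at E16.0.

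Of the remaining members of that list, Synpr, a synaptic vesicle protein, had 84 UMIs in Lhx6-negative cells (median 35.1 CPM) and 5 in Lhx6 interneurons (median 0) and was under the filter on low counts. Cck, a neuropeptide of a CGE-derived basket cell class, was lower in Lhx6-negative cells (-3.91) in 17 of 17 libraries. Npas1 (-0.13), Npas3 (-0.32), Reln (-0.78) and Id2 (-0.51) were not called, with edgeR adjusted p of 0.785, 0.152, 0.0648 and 0.109. That was the mean of stages. At E17.5 alone 7 of the 10 were higher and 1 lower, where 12.9% of all genes tested were higher and 10.4% lower; Npas1 was higher by 1.66 in 8 of 8 libraries (edgeR adjusted p = 0.000431) and Npas3 by 0.75 in 6 of 8 (edgeR adjusted p = 0.00115). At E16.0 (15.5% higher, 12.8% lower) Npas3 (-0.83) and Reln (-1.70) were lower, each in 5 of 5 libraries (edgeR adjusted p of 0.0338 and 0.0476). Vip, the neuropeptide of a main adult CGE class, had 4 UMIs in all, in 1 library at E17.5, and Lamp5 had none in Lhx6-negative cells of the libraries with at least 10 of them.

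**Figure D2:**
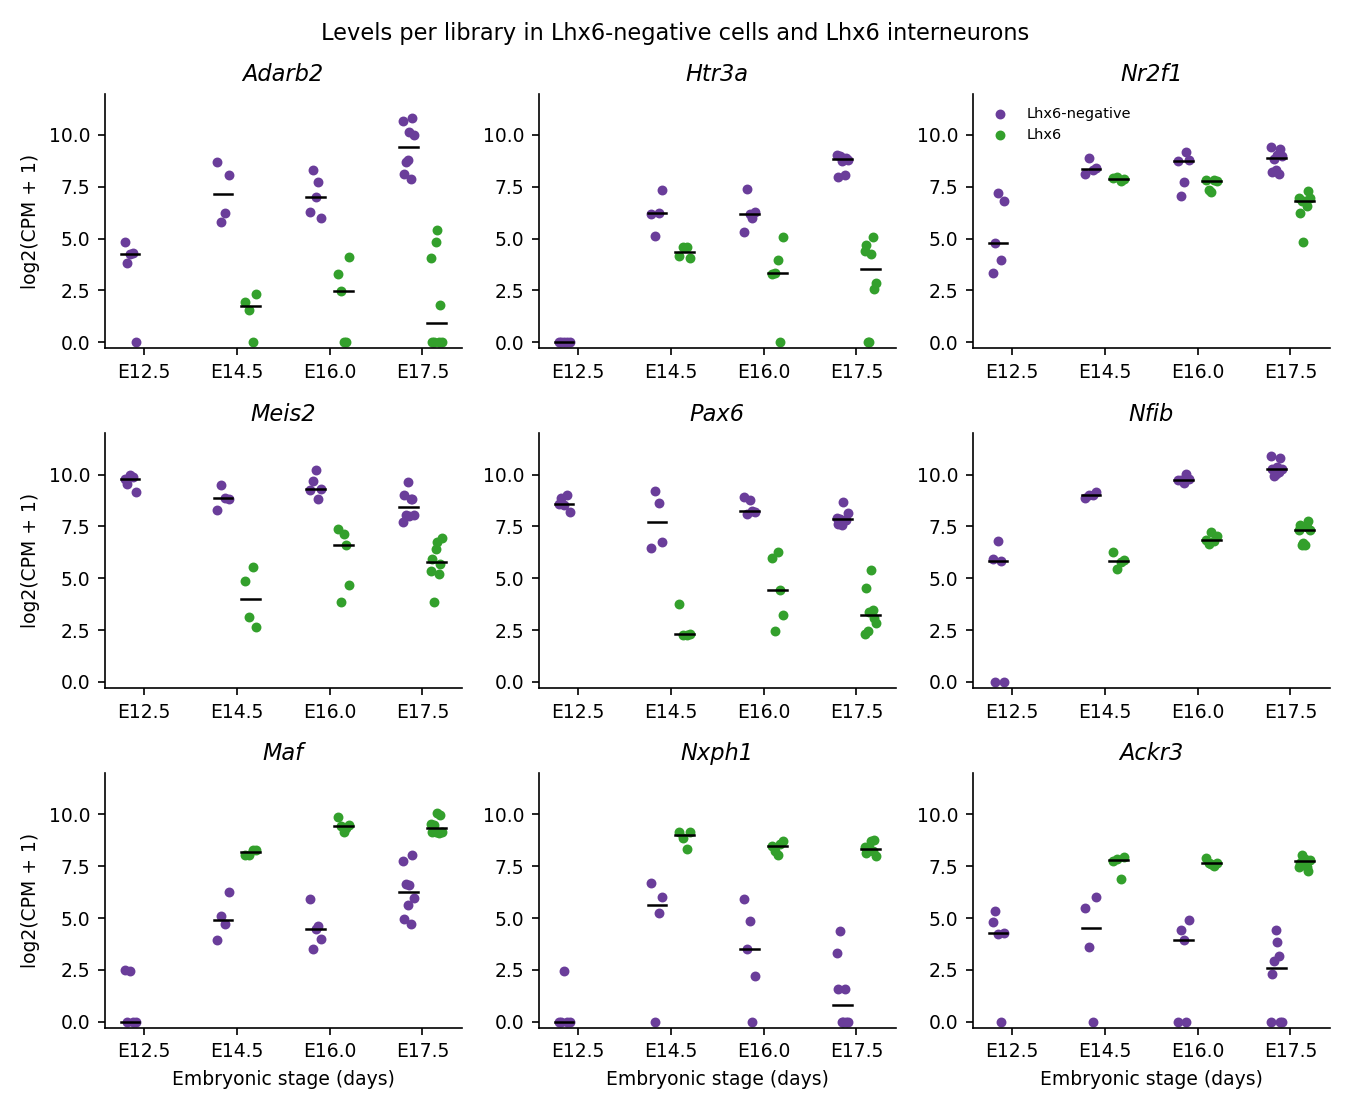
Level of 9 genes, as log2(CPM + 1), in Lhx6-negative cells (purple) and Lhx6 interneurons (green) by stage. Each point is 1 library with at least 10 cells of the class, black bars are medians, and no Lhx6 interneuron library is shown at E12.5 because 1 such cell was found; Adarb2, Htr3a, Meis2, Pax6 and Nfib lie higher in purple and Maf, Nxph1 and Ackr3 lower at each stage compared.

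Genes of MGE interneurons were the mirror of this. Of 14 listed, 10 were tested and 9 were lower, with a median log2 difference of -3.36. Maf, a factor of the Sst and Pvalb lineages, stood at 10.3 to 265 CPM in Lhx6-negative cells (median 33.3) and 261 to 1057 in Lhx6 interneurons (median 577), a log2 difference of -3.66 (SE 0.23, edgeR adjusted p = 8.67e-10). Nxph1 (chromosome 6, 8948431 to 9249032, plus strand), a secreted neurexin ligand, was at 0 to 101 CPM (median 3.66) against 254 to 564 (median 344), without overlap. Its difference was -4.70 (SE 0.23, edgeR adjusted p = 2.19e-14). Somatostatin (Sst) was at 0 in 12 of 17 Lhx6-negative libraries and at 112 CPM or more in all Lhx6 libraries, with a difference of -4.76; its highest value, 695 CPM, came from 1 library, E14.5 Chd8+/- M1. Npy (-4.73), Mef2c (-3.06), Satb1 (-1.66), Sox6 (-1.41) and Nxph2, with 4 UMIs in Lhx6-negative cells, were also lower. St18 was the exception on the list, higher by 3.26 in 17 of 17 libraries. Nkx2-1, the founding MGE factor, had no UMI in Lhx6-negative cells up to E16.0 and 1 at E17.5, against at most 35.6 CPM in a library of Lhx6 interneurons.

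Genes of LGE, olfactory and striatal GABAergic cells were tested for 7 of 20, and 4 were higher and 1 lower, with a median of 1.39. Meis2 (chromosome 2, 115863064 to 116065839, minus strand), a homeodomain factor of LGE-derived cells, stood at 211 to 1202 CPM in Lhx6-negative cells (median 456) and 5.29 to 166 in Lhx6 interneurons (median 45.9). The ranges did not overlap, and the log2 difference was 3.58 (SE 0.29, edgeR adjusted p = 6.68e-08). Pax6 was at 86.1 to 589 CPM (median 278) against 3.81 to 75.4 (median 8.22), also without overlap, a difference of 4.24 (SE 0.23, edgeR adjusted p = 5.1e-14). Pax6 is also on a list of 7 genes of radial glia and astrocytes, of which 4 were tested, with a median of 1.68. It does not tell LGE cells from radial glia. Gsx2, which patterns the LGE and CGE ventricular zone, was higher by 3.70, Etv1 by 1.39, and Bcl11b, a striatal and cortical factor, was lower (-1.03).

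The shared GABAergic programme differed by smaller amounts. Of 10 tested genes, 5 were higher, 3 lower and 2 not called, with a median of 0.36. The distal-less factors Dlx1 (1.11), Dlx6 (0.71), Dlx2 (0.54) and Dlx5 (0.54) were among the higher genes. Dlx6 lies within the rule gene Dlx6os1 on the opposite strand. The strand of origin was not checked, so reads of Dlx6 and Dlx6os1 cannot be told apart. The vesicular GABA loader Slc32a1 (-0.90) was among the lower genes but not called thinned to 3000 UMIs (-0.53, edgeR adjusted p = 0.344), and Gad1 (-0.04) and Sp9 (0.18) were not called, with edgeR adjusted p of 0.822 and 0.195. Without E14.5 Chd8+/- M1, Dlx6 was not called (0.61, edgeR adjusted p = 0.0649).

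Of 8 migration receptors tested, 3 were higher, 4 lower and 1 not called. Ackr3, which with Cxcr4 keeps migrating interneurons in their chemokine streams, was at 0 to 64.1 CPM in Lhx6-negative cells (median 7.86) and 119 to 258 in Lhx6 interneurons (median 200). It did not overlap, and its log2 difference was -3.68 (SE 0.19, edgeR adjusted p = 4.67e-25). Erbb4, the neuregulin receptor, was lower (-1.24), though in 13 of 17 libraries, and was not called without dividing cells (-0.27, edgeR adjusted p = 0.635) or thinned to 3000 UMIs (-0.92, edgeR adjusted p = 0.0802). Epha4, an ephrin receptor, was higher by 2.05 in 16 of 17 libraries. The semaphorin co-receptor Plxna4 was higher by 0.94 (edgeR adjusted p = 0.035) and not called without E16.0 Chd8+/- F1 (0.72, edgeR adjusted p = 0.13) or without any of several other single libraries.

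Genes of neuronal maturation were lower and genes of dividing cells higher. Of 17 maturation and synapse genes, none was higher, 13 were lower and 4 not called (median -0.79). Examples were the AMPA receptor subunit Gria1 (-4.28), the calcium sensor Syt1 (-2.69), Snap25 (-1.38) and the microtubule protein Mapt (-1.35). All 10 tested progenitor and cell cycle genes were higher (median 3.12), among them Ccnd2 (4.82), the topoisomerase Top2a (4.25) and Mki67 (3.92). The intermediate progenitor genes Gadd45g (2.35), Insm1 (3.05) and Btg2 (1.57) were higher as well, although Eomes was absent by rule. Among the genes named by size, Adarb2 (6.03) was the largest, and after Ccnd2, Top2a and Pax6 came Pclaf (4.16), Lgals1 (4.05), Ube2c (4.02), Cks2, Ccnb1 (3.99) and Cenpf (3.92), most of them cell cycle genes. The largest lower genes besides Nxph2 (-6.08), Sst, Npy, Nxph1 and Gria1 were Pde2a (-5.14), Tox2 (-5.04), Dlgap2 (-4.86) and Syndig1 (-4.20), each with 0 of 17 libraries in the other direction, and Cacng3, with 2 UMIs in Lhx6-negative cells and 345 in Lhx6 interneurons (ratio 90.5, 95% counting interval 24.9 to 750).

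The lowest p of all belonged to Nfib (chromosome 4, 82290173 to 82705750, minus strand), a nuclear factor I gene of late progenitors and migrating neurons, named here after its values were seen. It stood at 474 to 1898 CPM in Lhx6-negative cells (median 964) and 42 to 218 in Lhx6 interneurons (median 109), a log2 difference of 3.05 (SE 0.09, edgeR adjusted p = 3.25e-40), in 17 of 17 libraries. Its family member Nfix, also picked after its values were seen, was higher by 2.32 (edgeR adjusted p = 1.23e-10) in 17 of 17.

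Dividing cells were more frequent among Lhx6-negative cells. In the libraries with at least 10 cells of both classes, a UMI of Mki67, Top2a, Cdk1 or Ccnb1 was found in 16.7% to 33.3% of Lhx6-negative cells per library at E17.5 (median 22%) and in 5.36% to 11.4% of Lhx6 interneurons (median 6.69%). At E16.0 the ranges were 40% to 72% and 8.57% to 11.7%, and at E14.5 12.5% to 33.3% and 5% to 12.6%. With all such cells left out, an alternative added after the data were seen, 11 libraries remained, all of E16.0 or E17.5. Of 3689 genes, 181 were higher (4.91%) and 207 lower (5.61%). Of these calls, 330 were also made with dividing cells included. Adarb2 (6.71), Htr3a (4.93), Cnr1 (3.46), Nr2f1 (2.09), Meis2 (3.22), Pax6 (4.70) and Ccnd2 (4.93) remained higher, and Maf (-3.53), Nxph1 (-6.42) and Ackr3 (-4.58) lower. The CGE list then had 7 higher and 1 lower of 11, the MGE list 1 and 9 of 10, the LGE list 2 and 1 of 5, and the maturation list 0 and 6 of 15. The radial glia and astrocyte list had 3 and 0 of 3 (Pax6, Slc1a3 and Fabp7). Npas3 turned from -0.32 to 0.84 (edgeR adjusted p = 0.0109), Gad1 reached 0.62 (edgeR adjusted p = 0.032), and Etv1 was no longer called (0.69). E14.5 is absent from these values, so the change of stages and the loss of dividing cells cannot be told apart.

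The Lhx6-negative cells differed in which of 4 genes showed a UMI. A UMI of Meis2 or Pax6 was found in 69.7% of the 684 cells and in 10% of the 1433 Lhx6 interneurons, and one of Adarb2 or Htr3a in 52.3% and 6%, at median depths of 4438 and 3779 UMIs; the shares in Lhx6 interneurons are taken as background. The 684 include 121 cells of E12.5, where 1 Lhx6 interneuron was found, so the classes are not matched by stage. Of the 684, 185 (27.0%) had a UMI of Adarb2 or Htr3a and none of Meis2 or Pax6, 304 (44.4%) had Meis2 or Pax6 and neither of the others, 173 (25.3%) had both kinds and 22 had none of these genes. Without the E12.5 cells these were 185 (32.9%), 200 (35.5%), 158 (28.1%) and 20 of 563, so the first 2 sets were of similar size. At E17.5 the counts were 148, 100, 105 and 10. Of the 100 cells with Meis2 or Pax6 alone, 73 came from the M2 pair that stood apart; without it they were 27 of 159 (17%) against 27.5% with it, and per library they made up 9.09% to 38% (median 19.4%). Cells with Meis2 or Pax6 alone were dividing in 50%, 75.7% and 57% of cases at E14.5, E16.0 and E17.5. Those with both kinds were in 29.4%, 55.6% and 21.9%, and those with Adarb2 or Htr3a alone in 5%, 11.8% and 9.46%. Without the M2 pair the E17.5 values were 66.7%, 19.6% and 12.1%. The median depth of these sets at E17.5 was 5872.5, 3479 and 2916.5 UMIs, and cells with fewer UMIs have fewer chances to show a gene. Thinned to 3000 UMIs, 150 cells passed the rule at E17.5, of which 46 (30.7%) had Meis2 or Pax6 alone, 42 (28%) both and 58 (38.7%) Adarb2 or Htr3a alone. Dividing cells then made up 39.1%, 7.14% and 5.17% of these sets, from 18, 3 and 3 cells.

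**Figure D3:**
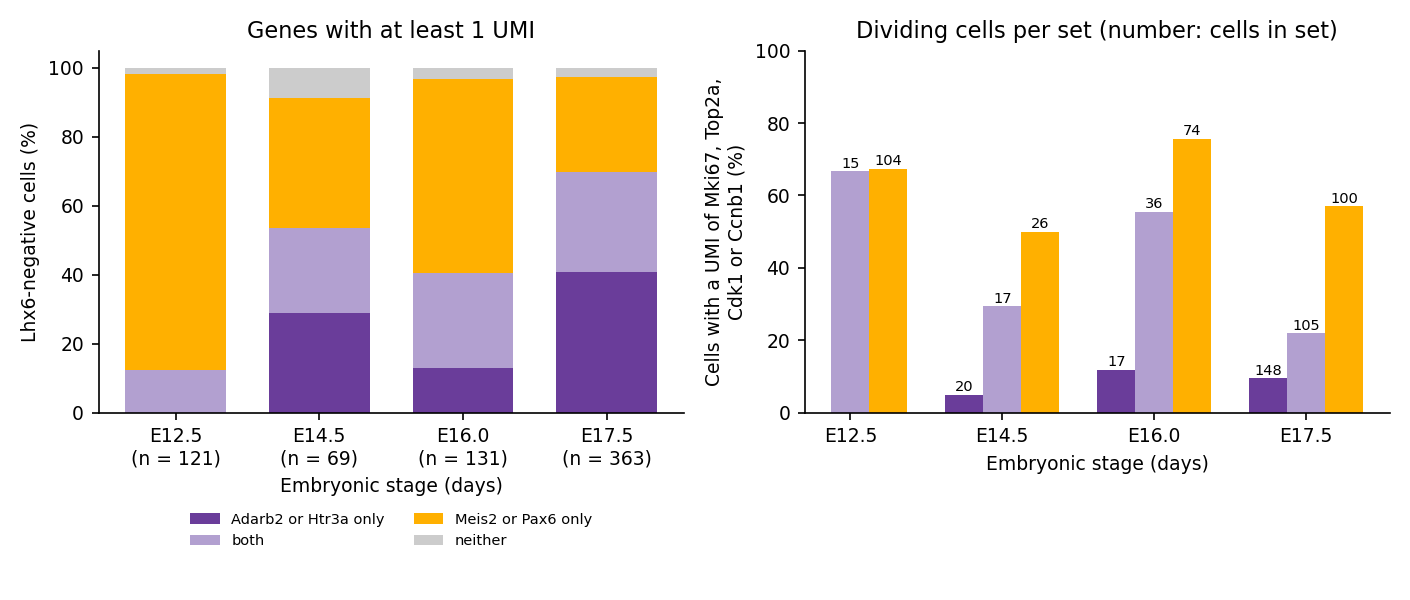
Left, percent of Lhx6-negative cells by stage with a UMI of Adarb2 or Htr3a only, of Meis2 or Pax6 only, of both or of neither. Right, percent of each set with a UMI of Mki67, Top2a, Cdk1 or Ccnb1, with the number of cells above each bar; at E17.5 it is 9.46% of 148, 21.9% of 105 and 57.0% of 100 cells.

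The contrast with Lhx6 interneurons changed with stage for few genes. A test of the class difference at E17.5 minus that at E14.5 called 7 genes of 4893 in the higher direction (0.143%) and 8 in the lower (0.163%). Nr2f1 was 0.57 higher in Lhx6-negative cells at E14.5 and 2.08 higher at E17.5, a change of 1.51 (SE 0.22, edgeR adjusted p = 1.24e-05). Its median went from 327 to 478 CPM in Lhx6-negative cells and from 235 to 112 in Lhx6 interneurons. Epha4 went the other way, from 2.93 to 0.89, a change of -2.04 (SE 0.37, edgeR adjusted p = 0.0013), with Lhx6 interneurons going from a median of 21.7 to 54.1 CPM and Lhx6-negative cells from 174 to 120. Of the 12 genes named from this test, 4 kept their call when each library was left out in turn: Nr2f1, Epha4, Pantr1 (0.96), a noncoding RNA, and Runx1t1 (-1.98), a transcriptional corepressor. The count of 15 calls fell to 8, 6 and 9 without E14.5 WT M1, M2 or F2 and to 7 without E17.5 WT M1 or Chd8+/- F2.

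At E12.5 the cells of the rule carried Zic1, Isl1 and Th, each at 0 in most later libraries, and Gsx2 and Slc18a2, which were also found later. None of the 121 had Adarb2 or Htr3a without Meis2 or Pax6, and 104 had Meis2 or Pax6 alone. Zic1, a zinc-finger factor of ventral and septal forebrain, stood at 152 to 297 CPM in the 5 libraries with at least 10 members (median 239). Isl1, the LIM factor of striatal neurons, was at 26.5 to 91.9 CPM (median 40.2), Th, the dopamine-synthesising enzyme, at 4.47 to 90.9 (median 53), the vesicular monoamine transporter Slc18a2 at 58.1 to 129 (median 81.5) and Gsx2 at 93.8 to 265 (median 100.1). Th and Slc18a2 were on no list and are named after their values were seen. Th had a UMI in 24 of the 121 cells (19.8%), Isl1 in 21 (17.4%), Slc18a2 in 45 (37.2%) and Gsx2 in 42 (34.7%). In 6914 excitatory neurons of that stage, barcodes with at least 4 Neurod6 UMIs, the shares were 0.318%, 0.145%, 0.188% and 0.318% at a median of 7792.5 UMIs, against 6419 in the cells of the rule. Of these 121 cells, 10 (8.26%) had a doublet score among the highest of their library, against 4.15% of all barcodes of that stage. Dividing cells made up 56.3% to 80% in the 5 libraries with at least 10 members, and 40% and 57.1% in those with 5 and 7. The name CGE-like is not used for the E12.5 cells.

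The difference between E12.5 and E14.5 may be one between cells of different make-up and shows no onset of a gene. It was tested in 22 libraries with at least 10 Lhx6-negative cells (5, 4, 5 and 8 by stage), with genotype as a term, by edgeR's quasi-likelihood test. Of 2916 genes, 213 were higher at E14.5 (7.3%) and 161 lower (5.52%). Htr3a, at 0 in all 5 libraries at E12.5, was at 33.3 to 160 CPM at E14.5, at least 24.5-fold higher against a floor of 3 UMIs over the E12.5 libraries. Npas1, also at 0 in all 5, was at least 13.5-fold higher. Nr2f1 went from a median of 26.5 CPM (9.09 to 147) to 327 (273 to 467), a log2 change of 2.63 (SE 0.62, edgeR adjusted p = 0.00868). Those were 3 of 7 CGE genes tested, with none lower (median 2.90, beside -0.005 over all genes tested); Adarb2, 3.37 higher, was not called (edgeR adjusted p = 0.0639). Of 8 maturation genes, 5 were higher, among them Mapt, which went from 0 to 54.5 CPM (median 18.4) to 356 to 534 (median 396), a change of 3.83 (SE 0.48, edgeR adjusted p = 8.95e-06). Of 7 migration genes, 4 were higher, among them Dcx (1.46; -0.031 thinned, edgeR adjusted p = 0.989), which binds microtubules of migrating neurons, and Erbb4, with 2 UMIs at E12.5 and 18 at E14.5 (ratio 22.8, 95% counting interval 5.45 to 203). Thinned to 3000 UMIs, 37 cells passed the rule at E12.5 and 28 at E14.5, so few libraries of these stages kept 10 cells. Over the 11 libraries that remained, 11 genes were called in place of 374. Of the 15 called genes named here or from the lists that could be tested, Nfib kept its call. Loss of depth and loss of libraries cannot be told apart here. Without E14.5 Chd8+/- M1, 176 genes were called, and Npas1 and Erbb4 did not pass (edgeR adjusted p of 0.0807 and 0.0502). With the 2 libraries of each pair summed, an alternative added after the data were seen, 430 genes were called over 15 pairs, and Npas1, Lhx2, Shisa2 and Sst did not pass (edgeR adjusted p of 0.0507, 0.157, 0.065 and 0.0947).

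Some MGE genes were higher at E14.5 as well. Of 5 tested, 3 were higher, among them Maf, with 2 and 13 UMIs (ratio 16.5, interval 3.73 to 150), and Sst, at 0 at E12.5 and at least 63.3-fold higher. The Sst value rested on 1 library, Chd8+/- M1 with 695 CPM; without it Sst was under the filter, and Maf did not pass (edgeR adjusted p = 0.231). Nfib was at a median of 55.6 and 512 CPM, a difference of 3.11 (SE 0.34, edgeR adjusted p = 5.53e-07). The other largest differences in this direction were Sox1ot (3.48), Olfm1 (3.44), Ina (3.40) and Zfp704 (3.33).

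In the other direction, Zic1 was at 0 in all 4 libraries at E14.5, at least 25.3-fold lower against the floor of 3 UMIs over the E14.5 libraries. Crabp2, a retinoic acid carrier, was lower (-3.60, SE 0.57, edgeR adjusted p = 2.9e-05), from a median of 212 to 11.8 CPM. Shisa2 (-2.99), Lhx2 (-2.86), Kpna2 (-2.44) and Asf1b (-2.35) were also lower, as were Psat1, with 90 and 2 UMIs (ratio 17.8, interval 4.78 to 149), and Rad51ap1 (ratio 6.45, interval 2.08 to 32.4). Hbb-y, an embryonic globin of red blood cells, had 341 UMIs at E12.5 and 3 at E14.5 (ratio 44.9, interval 15.2 to 219), and the summed red blood cell genes were at 184 to 1086 and 99.9 to 389 CPM. In cells with at most 5 globin UMIs, also an added alternative, 291 genes were called in place of 374, and Sst, Maf and Rad51ap1 did not pass (edgeR adjusted p of 0.137, 0.143 and 0.165); globin genes are low there by construction. Meis2 (-0.78, edgeR adjusted p = 0.137) was not called. Of 27 called genes named from this step or its lists, 14 kept their call in all 22 fits with a library left out. Asf1b, Psat1, Sox1ot and Syt1 kept it where they were tested, in 11, 20, 11 and 8 of these fits. Without E14.5 Chd8+/- M1, Lhx2, Kpna2 and Rad51ap1 did not pass (edgeR adjusted p of 0.0927, 0.093 and 0.171).

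**Figure D4:**
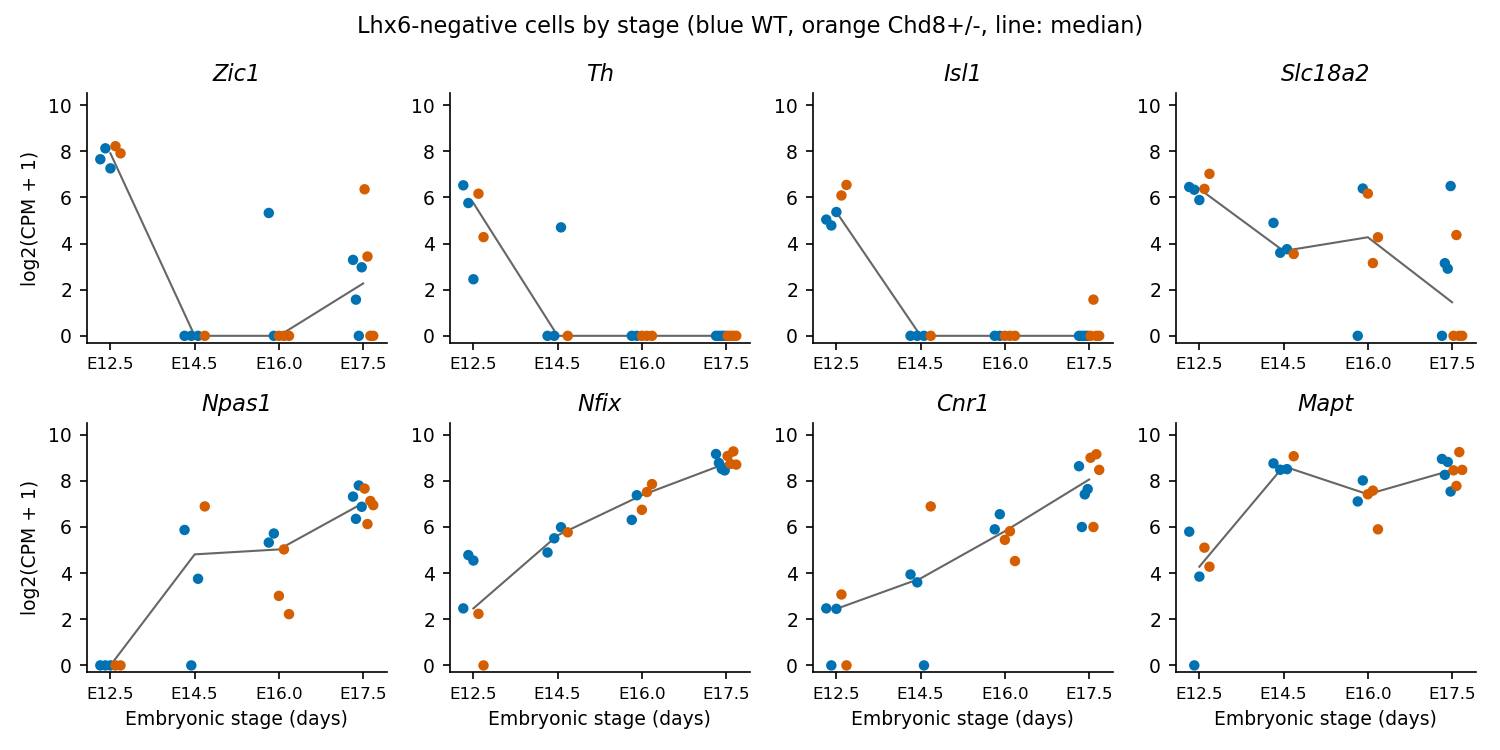
Level of 8 genes, as log2(CPM + 1), in Lhx6-negative cells by stage. Each point is 1 library with at least 10 such cells (blue WT, orange Chd8+/-) and lines join the medians; Isl1 lies high at E12.5 and at 0 in all but 1 later library, Zic1 and Th lie at 0 in most later libraries but reach 80.6 CPM (Zic1, E17.5) and 25 CPM (Th, E14.5), and Nfix and Cnr1 lie highest at E17.5.

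From E14.5 to E17.5, 68 of 2916 genes were higher (2.33%) and 46 lower (1.58%). The make-up of the Lhx6-negative cells differed between these stages as well. Over all libraries, 20 of 69 cells at E14.5, 17 of 131 at E16.0 and 148 of 363 at E17.5 had Adarb2 or Htr3a alone. Those with Meis2 or Pax6 alone numbered 26, 74 and 100. Htr3a is itself 1 of the genes that define these sets. Whether a gene changed within a set was not tested. Nfix went from 28.7 to 62.4 CPM (median 48.9) to 349 to 617 (median 430), without overlap, with 78.1 to 231 at E16.0 between them. The change was 3.28 (SE 0.32, edgeR adjusted p = 2.08e-08). Htr3a went from 33.3 to 160 CPM (median 73.4) to 248 to 518 (median 453), also without overlap, a change of 2.29 (SE 0.35, edgeR adjusted p = 0.00062). Nfib rose by 1.43 (edgeR adjusted p = 0.00292) from a median of 512 to 1232 CPM. Npas3 (1.51, edgeR adjusted p = 0.0456) was the other CGE gene called, so 2 of 7 were higher and none lower. Adarb2 went from a median of 171 to 741 CPM and Cnr1 from 12.7 to 276, but neither passed (2.07 and 2.65, edgeR adjusted p of 0.128 and 0.0995). Without E17.5 WT M2, Cnr1 passed (2.89, edgeR adjusted p = 0.0393), as it did without Chd8+/- M2 (adjusted p = 0.02) and by DESeq2 (adjusted p = 0.0065). None of 5 MGE and none of 8 maturation genes was called, and of 10 GABAergic genes Slc32a1 alone was, lower at E17.5 (-1.07, edgeR adjusted p = 0.036).

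Other large rises were Pou3f2 (2.72), Cttnbp2 (2.07), Ppp1cc (2.05), Id4 (1.96), Mir99ahg (1.91) and Gm10076 (1.77). Prox1os, antisense to the rule gene Prox1, had 3 UMIs at E14.5 and 141 at E17.5 (ratio 9.4, 95% counting interval 3.15 to 46.1); Prox1 itself went from a median of 73.2 to 206 CPM, and the strand of origin was not checked, so reads of the pair cannot be told apart. The largest falls were Rpp25 (-2.18), 2610318N02Rik (-1.98), Runx1t1 (-1.96), Hist1h2bc (-1.89), Gfod2 (-1.33), Dusp1 (-1.18), Rgs2 (-1.15), Mfng (-1.15), Mir124-2hg (-1.11) and Slc35b1 (-1.08). This step rested on few E14.5 cells, 55 in 4 libraries. Without Chd8+/- M1 of E14.5 it gave 12 calls, without WT M2 28 and without WT M1 31, against 114 with all. Of 25 called genes named from it or its lists, 5 kept their call in all 22 fits with a library left out: Nfix, Htr3a, Nfib, Runx1t1 and Mir99ahg. Prox1os kept it in the 11 fits that tested it. Thinned to 3000 UMIs, 11 libraries remained and 0 genes were called by edgeR (95 at an unadjusted p below 0.05). At E14.5 28 cells passed the thinned rule, so loss of depth and loss of libraries cannot be told apart. With the 2 libraries of each pair summed, 46 genes were called over 15 pairs, 39 of them among the 114, and 9 of the 25 kept their call; Runx1t1, Npas3 and Slc32a1 did not (edgeR adjusted p of 0.0995, 0.0595 and 0.133). Each of the other 19 lost its call without at least 1 of the E14.5 libraries (edgeR adjusted p of 0.0506 to 0.417), Npas3 and Slc32a1 without Chd8+/- M1 (0.233 and 0.112).

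Cells with and without an Sp8 UMI were also compared, in the 8 libraries with at least 10 of both. Sp8 is a gene of the rule, so cells without it had to carry at least 2 UMIs of Nr2f2 and Prox1, while cells with it need not, and the median depths were 4022 and 3332 UMIs. The split called 38 of 2328 genes by edgeR's quasi-likelihood test, 24 higher with Sp8 (1.03%) and 14 lower (0.601%), and nothing is read from these calls. With at least 2 UMIs of Nr2f2 and Prox1 asked of both sides, an alternative added after the data were seen, 4 libraries remained, with 73 cells with Sp8 and 88 without. Sp9, the close relative of Sp8, then went from 1.02 to 0.40 (edgeR adjusted p = 0.624), the phosphodiesterase gene Mpped2 from 1.81 to 0.55 (edgeR adjusted p = 0.748), and Npas1, a factor of CGE interneurons, from -1.83 to 0.013 (edgeR adjusted p = 1). Meis2 (0.37), Pax6 (0.66), Adarb2 (0.098) and Htr3a (0.54) did not pass either (edgeR adjusted p of 0.855, 0.545, 0.95 and 0.469), and 2 of the 38 calls were among the 17 made there.

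The genotypes differed in no gene of the Lhx6-negative cells that passed the test. Averaged over stages, 0 of 2916 genes were called by edgeR's quasi-likelihood test (0%), with 120 at an unadjusted p below 0.05, and 0 by DESeq2. The lowest p belonged to St18 (1.16), Smc4 (-0.88) and Bub3 (-0.66), all with an adjusted p of 0.847. At E17.5 alone, 0 of 4076 were called (0%), with 141 at an unadjusted p below 0.05 and 0 by DESeq2. Adarb2 (0.59), Htr3a (-0.07), Nr2f1 (0.09), Meis2 (-0.27) and Pax6 (0.37) had adjusted p of 1. With the pair of the same sex and number, taken as litter-matched, as a block, 9 genes were called, all lower in Chd8+/- cells. That fit held the 8 libraries of E17.5 alone. They were Ube2c, Ccnb1, Tuba1c, Tubb4b, Smc4, Arl6ip1, H2afx, Cks2 and Ccnb2, with edgeR adjusted p of 0.0233 to 0.0477. The fit without the block used 22 libraries of all stages, so the effects of the block and of the set of libraries cannot be told apart. Ube2c, Ccnb1, Smc4, Cks2 and Ccnb2 act in mitosis. Without the block, leaving out WT M1 or Chd8+/- M2 gave 3 calls each.

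Levels by pair are given for some of these genes. Ube2c, a mitotic ubiquitin-conjugating enzyme, was at 87.9, 857, 547 and 1251 CPM in WT M1, M2, F1 and F2 and at 53.7, 476, 88.2 and 195 in their Chd8+/- partners. It was lower in 4 of 4 pairs, with a log2 difference of -1.46 without the block (edgeR adjusted p = 1) and -1.64 with it (edgeR adjusted p = 0.0233). Smc4, a condensin subunit, was at 193, 354, 254 and 438 CPM in WT and 67.1, 208, 113 and 97.7 in Chd8+/- libraries. Tuba1c, an alpha-tubulin, was at 8.79, 120, 111 and 164 against 13.4, 17.7, 25.2 and 0, so lower in 3 of 4 pairs, and its p was the lowest without the block (-2.68, edgeR adjusted p = 0.525). The share of dividing cells, a measure that includes Ccnb1, moved with these genes: 22.6%, 29.3%, 21.4% and 33.3% in WT M1, M2, F1 and F2 and 16.7%, 27.7%, 18.2% and 20.8% in their partners, lower in 4 of 4 pairs. These shares rest on 7, 27, 6 and 12 dividing cells in WT and 3, 31, 4 and 5 in their partners. Libraries held 18 to 112 cells, and the difference was not tested. At E16.0 the share was higher in the Chd8+/- embryo in 4 of 4 pairs, at 66.7%, 40%, 47.4% and 20% in WT M1, M2, F1 and F2 and 100%, 72%, 54.2% and 62.2% in their partners, from 3 to 37 cells a library. At E14.5 it was lower in 2 of 4 pairs and at E12.5 in 2 of 3. Fewer dividing cells and less of these transcripts per dividing cell cannot be told apart in the sums.

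Markers of several other cell types were near 0 in the Lhx6-negative cells. In the libraries with at least 10 of them, the 7 genes of diencephalic GABAergic cells summed to at most 13.8 CPM, with Gata2, Gata3, Tal1, Lhx1 and Pax7 at 0 at every stage, and the 6 microglial genes to at most 11.1. The 5 endothelial genes reached 134 CPM and the 5 pericyte genes 102, both in E17.5 Chd8+/- M2, the library with the highest share of Lhx6-negative cells; the other 7 libraries of that stage had at most 36.6 and 11.8, its WT partner 7.86 and 11.8. The 11 genes of excitatory neurons summed to 18.4 to 542 CPM, with Slc17a7 at 0 at E12.5, E14.5 and E17.5. Genes of radial glia, which share Pax6 with LGE cells, were not near 0. They summed to 215 to 3582 CPM, against 39.7 to 1734 in Lhx6 interneurons from E14.5 on. Red blood cell genes were at 86.8 to 1086 CPM; in Lhx6 interneurons Hba-a2 reached 6181, and its lower level in Lhx6-negative cells (-2.93, edgeR adjusted p = 0.0468) was not called by DESeq2 (-1.21, adjusted p = 0.194) nor without E14.5 WT M1 (-1.40, edgeR adjusted p = 0.331), nor in cells with at most 5 globin UMIs (-0.29, edgeR adjusted p = 0.593), where 62 of the 63 called genes named from that contrast or its lists kept their call. Of the 684 cells, 27 (3.95%) had a doublet score among the highest of their library, against 18 of 1433 Lhx6 interneurons (1.26%), 3.81% of all barcodes and 5.02% of excitatory neurons.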

How the data were processed

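Each of the 32 embryos gave 1 library; the authors deposited raw UMI counts per gene and barcode for 32285 genes, not normalized. The submitters' processing notes name Cell Ranger, STARsolo, STAR 2.7.9a and mm10, with no order. Members and gene lists were chosen with earlier results of these data known. Barcodes with at least 1000 UMIs and 500 genes were kept, with no other filter; doublet scores came from simulated doublets, and marked cells were removed only as an alternative. Counts were summed per library and class (at least 10 cells) and tested with edgeR 4.0.16 in R 4.3.3 (quasi-likelihood, TMM, filterByExpr, Benjamini-Hochberg, threshold 0.05), with the library as a block within libraries. For stage and the averaged genotype these terms entered additively, in place of the planned stage by genotype groups, because several groups had under 3 libraries; genotype at E17.5 used those groups. Shares were tested by exact permutation with scipy 1.17.1, apart from genotype averaged over stages, which used 100000 random permutations within stages. Alternatives included DESeq2 1.42.0, no filter on low counts, thinning to 3000 UMIs and leaving out each library. Scripts were tested on simulated counts.

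Besides the listed genes, genes were named by rule from those called whose average log2 CPM was 5 or more: the 10 largest in each direction for class (same sign in at least 90% of libraries) and stage, the 6 largest for the change of contrast and the Sp8 split, and for genotype the 3 lowest p where none was called. Libraries of the same stage, sex and number were taken as litter-matched pairs, as the sample titles give sex and number but no litter. Deviations of summed expression correlated within 16 of 16 pairs (r of 0.16 to 0.92), and in 13 of 16 the partner correlated best. Values of some genes that the rule or lists name are not reported here. Positions are from GENCODE M21 on GRCm38. Intervals of ratios and shares cover counting error only.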

Additional observations from a re-analysis of the deposited data

Results flagged for a closer look

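The share of Lhx6-negative cells in the E17.5 Chd8+/- M2 library, 3.27%, lay far above the other 3 libraries of its group; it was the single library of this kind among 14 groups examined, and chance alone marks about 1 group in 20. The WT library of its pair was also high, at 2.52%.

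For 12 named genes the difference between Lhx6-negative cells and Lhx6 interneurons changed between E14.5 and E17.5 by the test of that change itself (edgeR's quasi-likelihood test). The change in log2 difference was 4.31 for Vstm2a, which rests on 1 UMI in Lhx6-negative cells at E14.5, 2.25 for Enho, 1.96 for Cttnbp2, 1.63 for Npas3, 1.51 for Nr2f1 and 0.96 for Pantr1. It was -4.03 for Gria1, -2.24 for Tiam2, -2.04 for Epha4, -1.98 for Runx1t1, -1.84 for Tmem176b and -1.32 for Psmg4. Nr2f1, Pantr1, Epha4 and Runx1t1 kept the call when each library was left out in turn and by DESeq2; the other 8 lost it in at least 1 of these.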

How the results depend on the processing

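The difference in share between Chd8+/- and WT changed sign with small changes of processing, always without passing the test. Thinned to 3000 UMIs it was 0.0253 points at E12.5 and -0.0242 at E17.5; with at least 3 UMIs of Nr2f2, Sp8 and Prox1 it was 0.00709 at E14.5; without the M2 pair it was -0.195 at E17.5 and -0.0188 averaged over stages. With each library left out it ran from -0.161 to 0.0506 at E12.5, -0.135 to -0.0307 at E14.5, 0.116 to 0.308 at E16.0, -0.611 to 0.458 at E17.5 and -0.123 to 0.145 on average; the cause was not tested. With the matched pair as a replicate block the p was 0.641 averaged over stages, and 0.5 at E16.0 and 0.875 at the other stages after adjustment. At E17.5 9 genes were called in place of 0, in a fit of the E17.5 libraries alone. Over means of pairs the step in share to E17.5 was 0.994 points. The steps of the part among Lhx6-negative cells plus Lhx6 interneurons were -88.1 points to E14.5 and 17.3 to E16.0. None of these passed, but so few pairs cannot decide them, as given above. With the libraries of a pair summed, E17.5 against E14.5 gave 46 calls in place of 114.

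Counts of genes called moved more. Against Lhx6 interneurons 1829 genes became 299 thinned and 388 without dividing cells, both with fewer cells and no E14.5 library. They ran from 1582 to 1829 with each library left out. Of 63 called genes named from that test or its lists, 58 kept the call in all left-out fits (Pde2a in the 15 of 17 that tested it), 62 by DESeq2, 36 of the 42 tested thinned and 46 of the 53 tested without dividing cells. The change of that contrast with stage (15 calls) gave 6 by DESeq2, 30 without the filter on low counts, 2 without the E17.5 WT M1, Chd8+/- M1 and Chd8+/- F1 libraries, and 6 to 17 with each library left out. E14.5 against E12.5 (374) gave 11 thinned, where few libraries of both stages remained, and 176 to 395 left out. E17.5 against E14.5 (114) gave 0 thinned, with few E14.5 libraries left and 95 genes at an unadjusted p below 0.05, 158 by DESeq2, and 12 to 118 left out. The Sp8 split (38) gave 19 by DESeq2, 149 without the filter, 82 without cells of high doublet score, 4 without the M2 pair, 17 with at least 2 UMIs of Nr2f2 and Prox1 on both sides, and 11 to 86 left out. The genotype at E17.5 (0) gave 8 without the filter, 1 without cells of high doublet score, 1 without the 3 libraries named above, and 0 to 3 left out; averaged over stages it gave 5 without the filter and 0 in each fit with a library left out.

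Gad1, not called against Lhx6 interneurons, changed sign to 0.10 with at least 20 cells, 0.37 thinned, 0.62 without dividing cells, 0.016 without the M2 pair and -0.11 to 0.020 with each library left out. Npas1 became 0.63 thinned, 0.92 without dividing cells and -0.56 to 0.085 left out, Npas3 0.97 and 0.84, Sp9 -0.32 and Fos 0.14 without dividing cells. The fits with at least 20 cells, thinned or without dividing cells hold no E14.5 library. Their values average other stages than the main fit, and the change of stages cannot be told apart from that of the setting. In the Sp8 split with the same condition on both sides, Npas1 became 0.013, Hist1h2ae -0.035, Htr3a 0.54 and Adarb2 0.098. Thinned, Dcx at E14.5 was -0.031 and Gadd45g at E17.5 was 1.13. Not run were a minimum of 20 cells for the stage steps, the change of contrast and the Sp8 split, thinning for the latter pair, leaving out dividing cells for the change of contrast, and genotype within E14.5 or E16.0.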

Other observations

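Immediate early and stress genes, read here because dissociation is known to induce them, were tested for 5 of 9 in the contrast of Lhx6-negative cells with Lhx6 interneurons. Ier2 (1.52), Jun (1.07) and Egr1 (2.04) were higher and Fos (-0.73) lower by edgeR's quasi-likelihood test, with Egr1 higher in 12 of 17 libraries. Slc18a2, the monoamine transporter given above at E12.5, stood at 10.7 to 28.7 CPM in Lhx6-negative cells at E14.5, 0 to 82.5 at E16.0 and 0 to 88.9 at E17.5, whereas Lhx6 interneurons had 1 UMI of it, at E16.0. Tiam2, a Rac activator, was higher by 2.55 in 17 of 17 libraries, and Chl1 lower (-2.23) in 17 of 17.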
